A study of Mus musculus with 3 samples.

Results

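The TRIM family was followed in mouse bone marrow-derived dendritic cells after 24 h with PTX, LPS or PBS. Its members were all probe sets whose single platform gene symbol was Trim followed by a digit, which gave 111 probe sets for 58 genes out of 18193 genes with a symbol of their own. The rule itself uses no measured value, although the family was picked for description with earlier results of these data known. Per the labels, marrow from female mice aged 6 weeks was grown with murine GM-CSF at 20 ng/mL, nonadherent cells were collected on day 7, and they were incubated with PTX at 100 ng/mL, LPS at 1 µg/mL or PBS. LPS, lipopolysaccharide, is the bacterial ligand of Toll-like receptor 4, and PTX is not spelled out in the labels. The strain label reads C57BL/7 for the PTX sample, and C57BL/6 for the LPS and PBS samples. Each group was 1 Affymetrix array, so no difference has a replicate check, no error within a group can be given and no test was possible. Whether the cultures shared an animal or a marrow preparation is not stated, and such differences cannot be told apart from those between groups.

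TRIM proteins share an N-terminal tripartite motif made of a RING finger, 1 or more B-boxes and a coiled coil, and most act as E3 ubiquitin ligases. The domain that follows the coiled coil sets the subfamily, most often a PRY-SPRY domain that recognises the target. Many members restrict viruses or tune the signalling of RIG-I-like receptors, cGAS-STING and Toll-like receptors, and in mice several are encoded side by side in a cluster around Trim5 and Trim30a that has expanded in rodents. Type I interferon, which dendritic cells make after Toll-like receptor stimulation, is known to raise some of these genes.

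Values are deposited intensities, and a difference is that of log2(intensity + 16), so a difference between dim readings is compressed. Where several probe sets reported a gene, the one brightest on average (mean log2 of the 3 arrays) stood for it. A gene counted as measured where that probe set reached an intensity of 78.9, the median of all noncontrol values, on at least 1 array. Of the 58 genes 43 were measured, and "higher" or "lower" in a count means at least 2-fold, a log2 difference of at least 1. Levels of different probe sets are not compared with each other, because probes differ in how brightly they report a transcript.

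The arrays were not on a common level. The median intensity of all probe sets was 87.0 for PTX, 65.4 for LPS and 85.8 for PBS. For 18S ribosomal RNA, the 3′ reading divided by the 5′ reading was 0.198 (PTX), 1.95 (LPS) and 0.260 (PBS), so the LPS array stood apart from the others. Of the 8 dendritic cell markers 7 were measured, among them Itgax at 1294, 1691 and 2383 and H2-Ab1 at 6480, 7849 and 5527 on the PTX, LPS and PBS arrays, while Cd209a stayed below the measured level. Flt3 alone among the measured ones passed 2-fold, at 253, 181 and 62.1 (1.78 for PTX and 1.33 for LPS against PBS). The summed intensity of 9 macrophage and monocyte markers was 40399 (PTX), 33739 (LPS) and 24157 (PBS). After PTX all 9 lay above PBS (median 0.83), while after LPS Fcgr1, Adgre1 and Cd68 were higher, Ccr2 was lower (71.7 against 2909) and C1qa, C1qb and C1qc lay between -0.72 and -0.63 (median of the list 0.21). That of 6 mast cell and eosinophil markers was 489 (PTX), 2521 (LPS) and 592 (PBS), and that of 6 neutrophil markers 5294, 11614 and 10191. The measured neutrophil markers went opposite ways after LPS. S100a8 (4007, 9306 and 6074 on the PTX, LPS and PBS arrays) and Camp (37.7, 259 and 70.7) lay above PBS. S100a9 (1083, 1924 and 3877) and Ltf (78.6, 38.6 and 97.3) were lower. After PTX all of them lay below PBS. The summed intensity of 4 plasmacytoid dendritic cell markers was 5107, 8957 and 1423. Most of this last sum was the interferon-inducible Bst2 (4103, 8735 and 783), and the other measured markers of that list, Tcf4 (787, 126 and 452) and Ccr9 (164, 36.5 and 137), were lower after LPS. The 6 T and NK cell markers summed to 445, 343 and 382, with 2 of them measured, and none of 4 B cell markers with a probe set was measured (159, 135 and 173). No marker was listed at 0, and the part of other cells in the results below was not tested. In bulk cultures, fewer cells of a type and less RNA per cell cannot be told apart.

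PTX against PBS asked which TRIM genes differed after PTX. Of the 43 measured members 7 were higher and 1 was lower, which left 35 within 2-fold. The higher ones were Trim30d, Trim34a, Trim30a, Trim12a and Trim5, which lie in the Trim5/Trim30 cluster, together with Trim14 and Trim25, and the lower one was Trim59. The 7 make 16.3% of the family against 3.04% of all 12299 measured genes, and the 1 lower gene makes 2.33% against 2.37%. The median log2 difference was 0.17 over the family and 0.01 over all measured genes, and 31 of the 43 members lay above 0 (72.1%, against 50.7% of all genes).

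LPS against PBS asked the same of the Toll-like receptor 4 ligand. Here 4 members were higher, namely Trim30d, Trim34a, Trim12a and Trim40, 3 were lower, namely Trim62, Trim59 and Trim7, and 36 were within 2-fold. These shares, 9.30% higher and 6.98% lower, stand beside 6.5% and 13.0% of all measured genes, so neither count sets the family clearly off from the rest of the array. The family's median was 0.05 and that of all genes -0.08, and 22 members lay above 0 (51.2%, against 44.0%). Centring the arrays on a common median put the family at 0.37 and all genes at 0.27, with 7 members higher and 2 lower in place of 4 and 3. Higher members then made up 77.8% of the 2-fold differences, against 57.1% with the intensities as deposited and 71.4% with quantile normalization. Over all measured genes the same share was 58.1% with centring, 33.3% as deposited and 45.6% with quantile normalization, so it moved the same way. With centring, 11.6% of all genes were higher and 8.37% lower.

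PTX against LPS sets both stimuli against each other. In this comparison 3 members were higher (Trim62, Trim7 and Trim30a) and 1 was lower (Trim40), which is 6.98% and 2.33%, beside 13.7% and 6.24% of all measured genes. The median was 0.28 over the family and 0.09 over all genes, and 35 members lay above 0 (81.4%, against 56.5%). With median centring the family's median was -0.08 and that of all genes -0.28. Centring also left 3 members higher and 4 lower, beside 8.57% and 12.6% of all genes, and quantile normalization 4 and 3, beside 9.81% and 8.63%. In relative terms the family lay above all genes by 0.19 as deposited, by 0.20 with centring and by 0.18 with quantile normalization. All 3 comparisons share arrays, so their values are set side by side and not correlated.

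**Figure D1:**
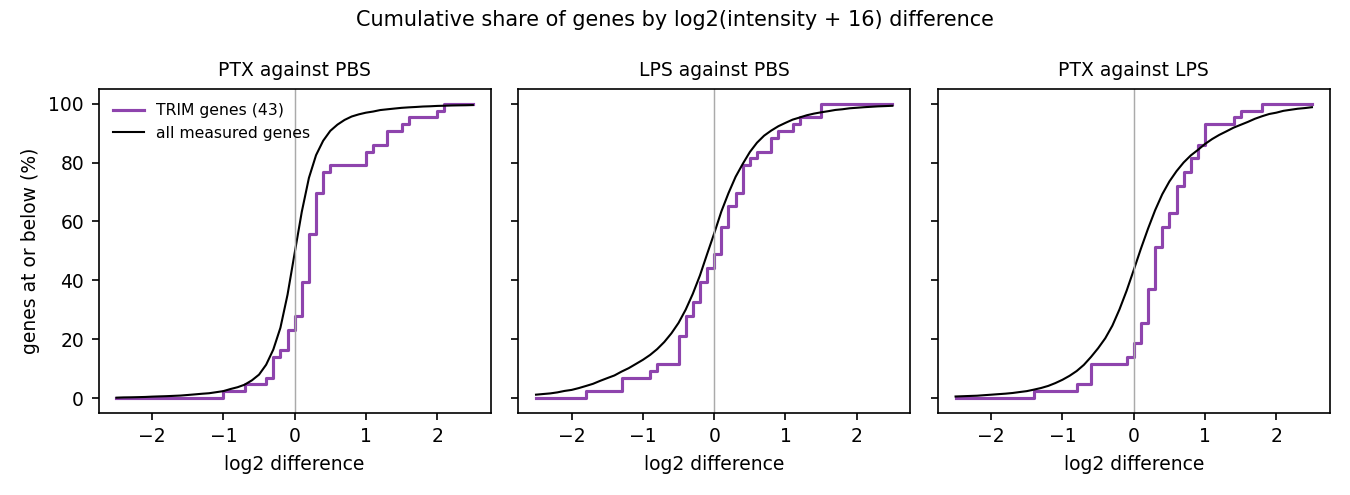
Cumulative share of genes (vertical axis, percent) at or below each log2(intensity + 16) difference (horizontal axis) in the 3 comparisons, for the 43 measured TRIM genes (purple steps) and all 12299 measured genes (black line). In PTX against PBS the TRIM curve lies to the right of the other with a tail of 7 genes at 1 or more, whereas in LPS against PBS 4 genes lie at 1 or more and 3 at -1 or less.

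Among the 43 measured members the highest reading belonged to PTX for 27 (62.8%, against 34.7% of all measured genes), to LPS for 7 (16.3%, against 34.4%) and to PBS for 9 (20.9%, against 30.8%). The PBS array held the lowest reading for 19 members (44.2%, against 25.6%). With median centring the LPS array held the highest reading most often, for 22 of 44 members (against 59.8% of all genes), and the PTX array for 14 (31.8%, against 20.7%). The PBS array then held the lowest reading for 24 of 44 (54.5%, against 35.3%). Which array was most often highest in the family thus depended on the scaling.

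**Figure D2:**
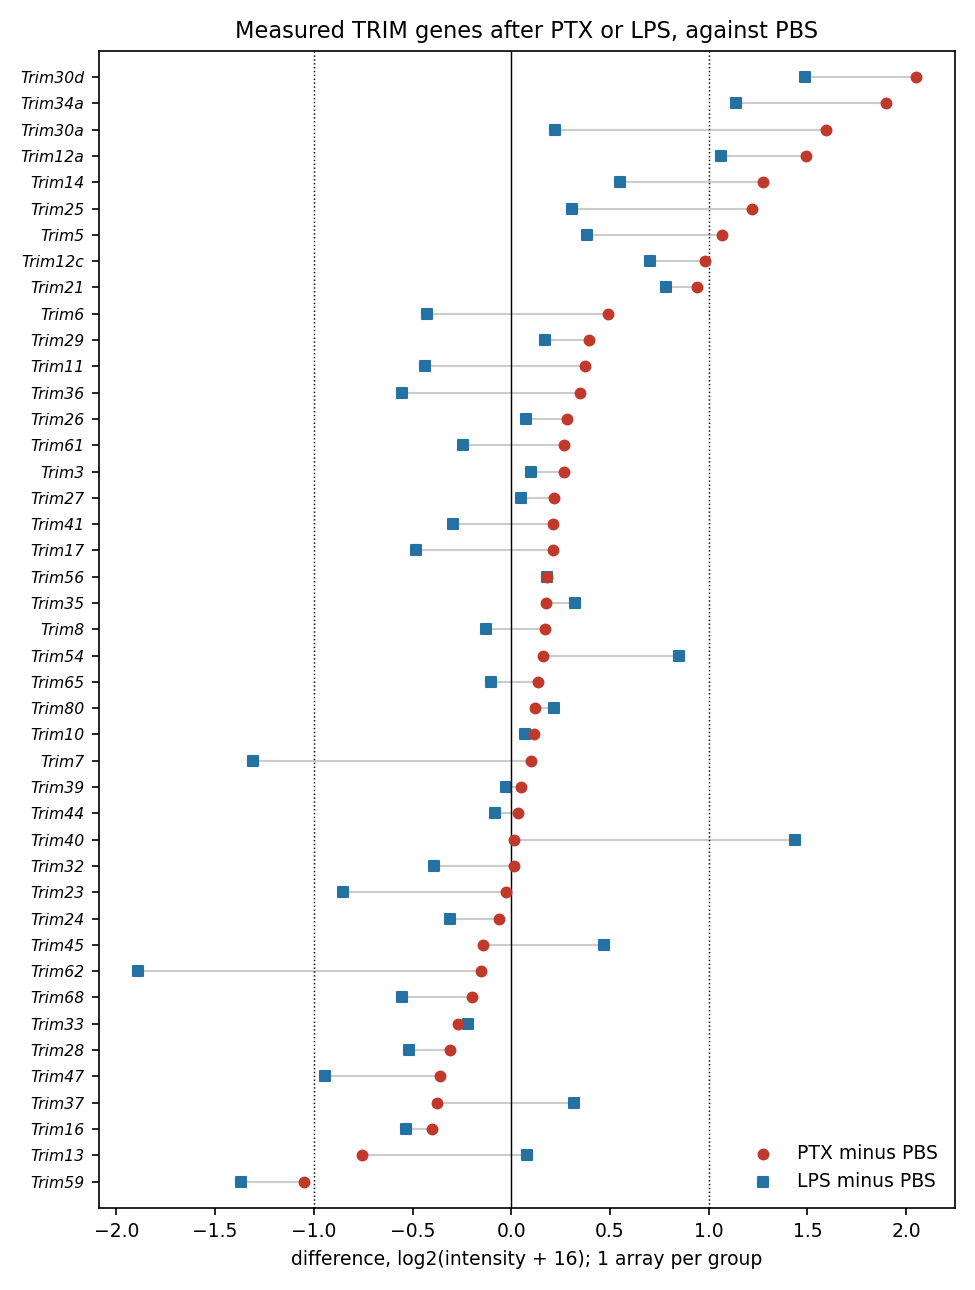
Difference in log2(intensity + 16) of each measured TRIM gene, PTX minus PBS (red circles) and LPS minus PBS (blue squares), 1 array per group, with dotted lines at 2-fold. The members at the top, from Trim30d at 2.05 to Trim21 at 0.94, lie to the right of 0 for both stimuli, and each has its PTX point further right than its LPS point.

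The cluster around Trim5 and Trim30a held most of the higher members. In the RefSeq table of the assembly GRCm38.p6 it runs over 21 annotated genes, of which 11 are TRIM genes and 1 is another protein-coding gene, and the order of the TRIM genes is Trim6, Trim34a, Trim5, Trim12a, Trim34b, Trim12c, Trim30b, Trim30c, Trim30a, Trim30d and the pseudogene Trim30e-ps1. Probe sets of their own were found for 7 of the 11, and all 7 were measured. After PTX 5 of the 7 were higher (71.4%, beside 3.04% of all measured genes) and all 7 lay above 0, with a median of 1.49. The 36 measured TRIM genes outside the cluster had 2 higher (5.56%), 1 lower (2.78%, beside 2.37% of all genes) and a median of 0.12. After LPS 3 of the 7 were higher (42.9%, beside 6.5% of all measured genes) and 6 lay above 0 (median 0.70). Of the 36 others 1 was higher (2.78%) and 3 were lower (8.33%, beside 13.0% of all genes), with a median of -0.09.

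Trim30a, which in mouse cells is known to dampen Toll-like receptor signalling by driving the loss of the TAK1 adaptors TAB2 and TAB3, read 5938 after PTX, 2286 after LPS and 1956 with PBS. It was high after PTX alone, with a difference of 1.59 from PBS and of 1.37 from LPS, against 0.22 for LPS against PBS. Its second probe set read 3311, 2737 and 926 in the same order and was high after both stimuli, with differences of 1.82 for PTX and 1.55 for LPS against PBS. Both probe sets therefore put Trim30a at least 2-fold above PBS after PTX, and they disagree on LPS and on PTX against LPS, which was 0.27 in the second.

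Trim30d is a close relative of Trim30a and its neighbour. It read 3197 after PTX, 2163 after LPS and 760.1 with PBS, differences of 2.05 and 1.49 from PBS and of 0.56 between the stimuli. The second probe set of Trim30d read 1020.2, 506 and 219, with differences of 2.14 and 1.15 from PBS and 0.99 between the stimuli. It was the only member at least 2-fold above PBS for both stimuli in every alternative tried.

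Trim34a, whose human counterpart TRIM34 acts with TRIM5α on some retroviral capsids, read 2264, 1329 and 595 on the PTX, LPS and PBS arrays. It was high after both stimuli, with differences of 1.90 and 1.14. Its second probe set, which is dimmer at 146, 159 and 85.8, lay in the same direction but inside 2-fold (0.67 and 0.78). Trim5, a member of the group that in primates holds the retroviral restriction factor TRIM5α, had 1 probe set at 508 after PTX, 309 after LPS and 233 with PBS. Its difference from PBS passed 2-fold for PTX (1.07) and not for LPS (0.38).

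Trim12a and Trim12c are mouse relatives of Trim5. Trim12a read 589, 433 and 199 on the PTX, LPS and PBS arrays, which is 1.49 for PTX and 1.06 for LPS against PBS. Its second probe set read 157, 31.1 and 131, so it put PTX at 0.24 and LPS at -1.64, and the direction of Trim12a after LPS depended on the probe set. Trim12c, reported in mouse cells to promote interferon and NF-kB signalling, read 1192, 981 and 597, just inside 2-fold after PTX (0.98) and at 0.70 after LPS. Its dimmer second probe set read 184, 82.7 and 83.0 and was high after PTX alone (1.02). Trim6, at the end of the cluster, had 139, 66.1 and 94.3 on the PTX, LPS and PBS arrays, with differences of 0.49 for PTX and -0.43 for LPS against PBS and of 0.92 between the stimuli. Its second probe set stayed below the measured level at 49.8, 28.1 and 34.4 (0.38 and -0.19).

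These genes are close in sequence. The chosen probe sets of Trim30a, Trim34a and Trim12a carry the suffix a, and those of the other 4 carry none. This suffix marks a match to several transcripts, which can be those of the same gene. It does not by itself mark a match to another cluster member. How far cluster members share readings was not tested.

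**Figure D3:**
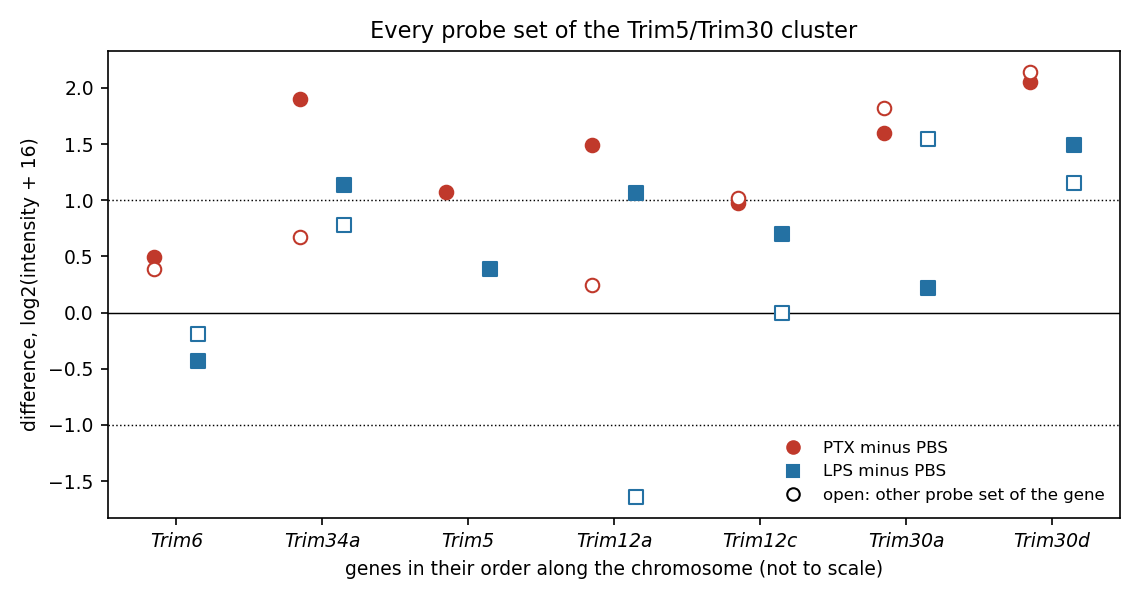
Differences from PBS in log2(intensity + 16) (vertical axis) for every probe set of the 7 measured cluster genes, in chromosomal order, after PTX (red circles) and LPS (blue squares). Filled symbols are the probe sets that represent the gene and open ones the others. All PTX points lie above 0, whereas 1 LPS point of Trim12a lies at -1.64 and both of Trim6 lie below 0.

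Promoter windows from RefSeq (GRCm38.p6, 250 bases before and 50 after each annotated transcript start) were searched for the interferon-stimulated response element, the DNA sequence bound by interferon-activated STAT and IRF factors, taken as GAAA, any 2 bases and GAAA again, on either strand (TTTC, any 2 bases and TTTC on the other). Windows were listed for 47 of the 58 members. Of these 9 (19.1%) held the motif, against 3.99% of all 27025 genes with a window, and they were Trim2, Trim5, Trim12a, Trim12c, Trim21, Trim26, Trim30a, Trim30d and Trim34a. The gamma-activated site, TTCNNNGAA, was found in 8.51% of the members and 9.55% of all genes, and a kappa B site, GGG and CC with any 5 bases between them on either strand, in 51.1% and 53.5%. A match is a description of the letters in the window and does not show that a factor binds there.

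The stretches from 70 bases before to 50 after the start are shown for the measured cluster genes and Trim21 because they include every match of these genes at the starts chosen, and for Trim25 as a member that was higher after PTX with no match. They are written 5′ to 3′ on the strand of the gene, with the motif in capitals. They lie at chr7:104465144-104465263 (Trim30a, minus strand), chr7:104507800-104507919 (Trim30d, minus), chr7:104315446-104315565 (Trim12a, minus), chr7:104353300-104353419 (Trim12c, minus), chr7:104288057-104288176 (Trim5, minus), chr7:104244387-104244506 (Trim34a, plus), chr7:102565433-102565552 (Trim21, minus), chr7:104218725-104218844 (Trim6, plus) and chr11:88999333-88999452 (Trim25, plus).
Trim30a: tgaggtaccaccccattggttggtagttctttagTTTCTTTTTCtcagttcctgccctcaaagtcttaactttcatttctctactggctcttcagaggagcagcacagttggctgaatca
Trim30d: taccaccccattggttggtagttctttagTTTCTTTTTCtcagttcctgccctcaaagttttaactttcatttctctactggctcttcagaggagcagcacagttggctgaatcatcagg
Trim12a: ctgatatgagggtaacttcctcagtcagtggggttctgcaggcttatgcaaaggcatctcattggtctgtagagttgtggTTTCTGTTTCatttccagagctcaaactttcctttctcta
Trim12c: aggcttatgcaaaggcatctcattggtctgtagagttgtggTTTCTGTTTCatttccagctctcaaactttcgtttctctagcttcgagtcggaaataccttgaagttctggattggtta
Trim5: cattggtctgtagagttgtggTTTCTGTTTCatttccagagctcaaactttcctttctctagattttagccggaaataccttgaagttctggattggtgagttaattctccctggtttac
Trim34a: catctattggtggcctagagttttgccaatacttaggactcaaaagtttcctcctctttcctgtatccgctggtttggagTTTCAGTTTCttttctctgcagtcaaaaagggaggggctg
Trim21: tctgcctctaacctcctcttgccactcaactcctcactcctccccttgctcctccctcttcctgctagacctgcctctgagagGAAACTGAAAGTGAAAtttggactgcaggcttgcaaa
Trim6: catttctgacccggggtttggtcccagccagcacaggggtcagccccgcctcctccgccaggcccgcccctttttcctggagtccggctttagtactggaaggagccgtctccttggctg
Trim25: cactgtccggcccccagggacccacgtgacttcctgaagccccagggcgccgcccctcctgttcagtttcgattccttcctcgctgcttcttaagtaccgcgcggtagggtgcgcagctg

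These stretches fall into related groups. Shifted by 5 bases, those of Trim30a and Trim30d matched at 114 of 115 positions. Those of Trim12a and Trim5 matched at all 61 positions compared, Trim12a and Trim12c at 78 of 81, and Trim12c and Trim5 at 92 of 100, while every other pair matched at 51.4% or less. Members of a related group thus share the stretch that holds the match and are not separate occurrences of it. The matches in the listed stretches begin between 49 bases before the start (Trim5) and 20 bases after it (Trim21, which has 2 overlapping matches), and Trim26 has 2 overlapping matches that begin 160 and 154 bases before its start.

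**Figure D4:**
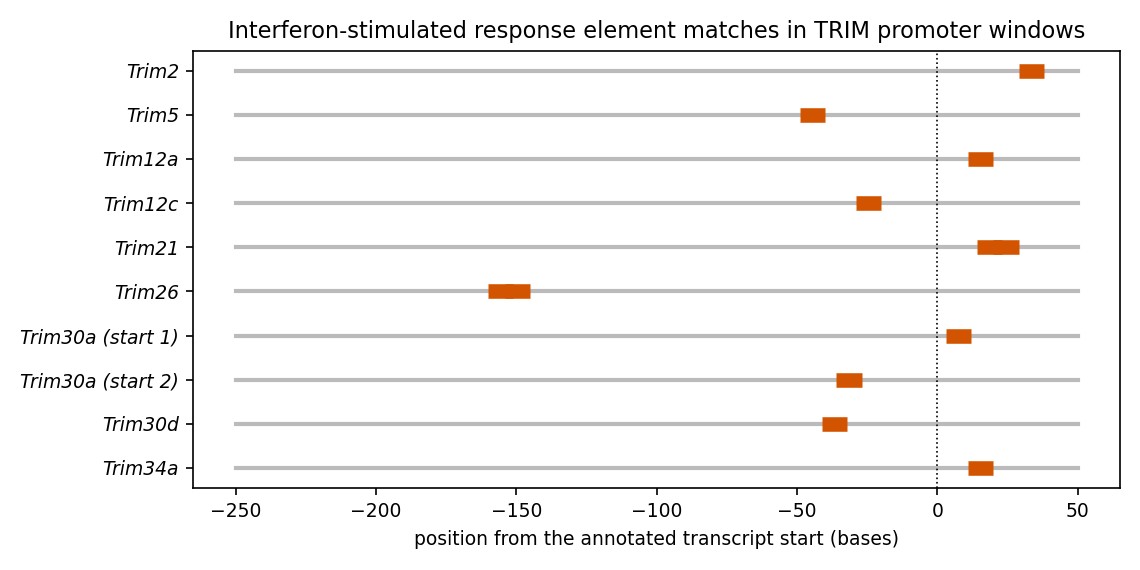
Position of the matches to the interferon-stimulated response element (orange) in the promoter windows (grey lines) of the 9 TRIM genes that hold one, in bases from the annotated transcript start. Trim30a has 2 annotated starts with a match, and in 8 of the 9 genes at least 1 match lies within 50 bases of the start.

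Of the 9 members with the motif 8 were measured, and in their chosen probe sets all 8 lay above 0 after PTX (median 1.28) and after LPS (median 0.74). After LPS the other measured probe sets of Trim12a (-1.64), Trim26 (-2.29) and Trim12c (-0.00) did not lie above 0. At least 2-fold higher in their chosen probe sets were 5 of the 8 after PTX and 3 after LPS. Of the 24 measured members with a window but no match 1 was higher after PTX (Trim25) and 1 after LPS (Trim40). The 5 and the 3 were all cluster genes, some of which share the stretch with the match. Trim21 and Trim26, which lie outside the cluster, were within 2-fold for both stimuli. The part of the motif and that of the cluster cannot be told apart here. Among all measured genes with a window, 14.8% of 366 with the motif and 2.59% of 9590 without it were at least 2-fold higher after PTX, and 15.8% and 6.13% after LPS. Trim26 had the smallest differences of the 8, with 292, 251 and 237 on the PTX, LPS and PBS arrays (0.28 and 0.07).

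Outside the cluster, Trim14 and Trim25 were the members at least 2-fold above PBS after PTX. Trim14, which lacks a RING finger and acts as an adaptor at the mitochondrial protein MAVS, read 1209, 726 and 490.3 on the PTX, LPS and PBS arrays. The difference was 1.27 for PTX and 0.55 for LPS. Its dimmer second probe set read 141, 34.4 and 73.8 and lay in opposite directions for the stimuli (0.81 and -0.83).

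Trim25, the ligase that attaches ubiquitin chains to RIG-I, read 4629 after PTX, 2454 after LPS and 1976 with PBS. It was high after PTX, with differences of 1.22 from PBS and 0.91 from LPS, and close to PBS after LPS (0.31). A second probe set gave nearly the same values (1.29 and 0.41 against PBS), and the remaining one, which read 696, 567 and 541, gave 0.35 and 0.07. With the mean of its 3 probe sets Trim25 was at 0.95 for PTX.

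Trim21, the cytosolic antibody receptor that targets antibody-bound viruses for degradation, read 1009 after PTX, 905 after LPS and 518 with PBS. Both stimuli were above PBS by a little less than 2-fold, at 0.94 and 0.79. The second probe set, at 231, 279 and 135, gave 0.71 and 0.97. The probe sets disagree on which stimulus gave the higher reading, and PTX and LPS differed by 0.16 in one and by -0.26 in the other.

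**Figure D5:**
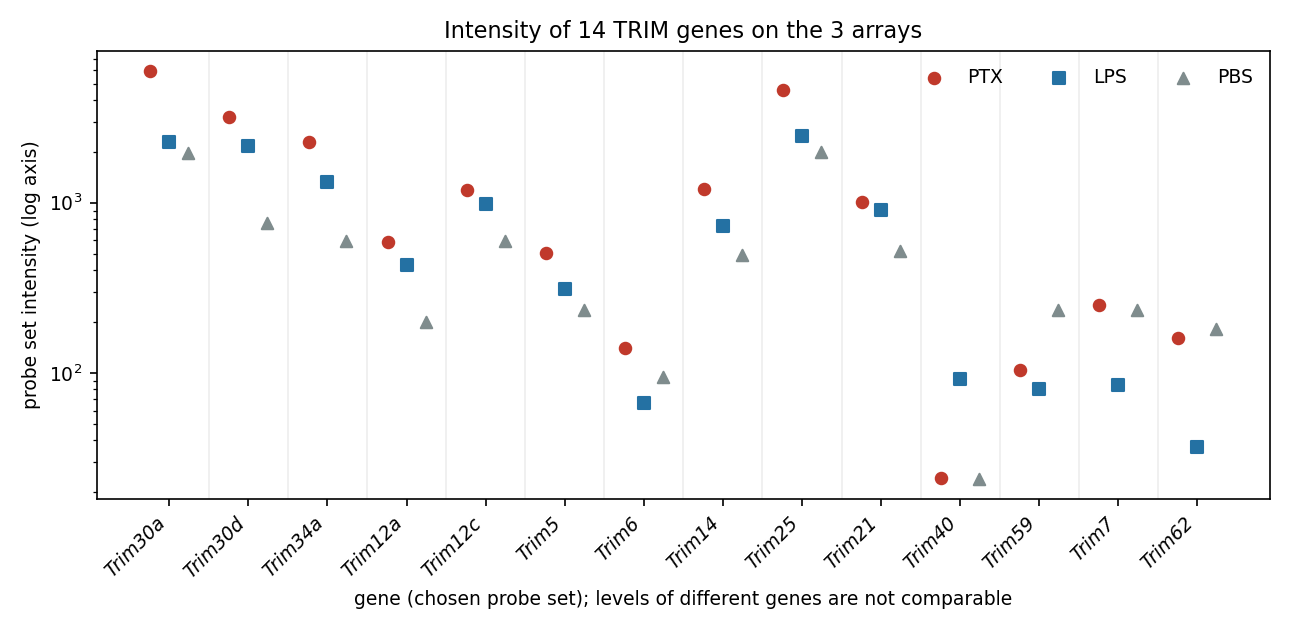
Intensity (vertical log axis) of the chosen probe set of 14 TRIM genes on the PTX (red circles), LPS (blue squares) and PBS (grey triangles) arrays, 1 reading each. From Trim30a to Trim5 and from Trim14 to Trim21 the PTX reading is highest and the PBS reading lowest, while Trim40 is high on the LPS array alone and Trim7 and Trim62 are low on it.

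Trim59 was the one member at least 2-fold below PBS after both stimuli, and 8 others read below PBS on both arrays without being 2-fold below on each. It encodes a membrane-anchored TRIM protein, and it read 104 after PTX, 80.3 after LPS and 233 with PBS, differences of -1.05 and -1.37. Its second probe set stayed below the measured level (38.5, 28.5 and 51.9) and gave -0.32 and -0.61. The 7 proliferation genes with a probe set, such as Top2a at 264, 162 and 1471 and Birc5 at 163, 140 and 961, were also lower after both stimuli in 7 of 7 cases (medians -2.05 for PTX and -3.06 for LPS against PBS), and their part in the Trim59 reading was not tested.

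The other members past 2-fold passed it, in their chosen probe sets, only in comparisons with the LPS array. Trim7, also known as the glycogenin-interacting protein, read 251 after PTX, 84.5 after LPS and 233 with PBS, and LPS was low in all 3 of its probe sets (-1.31, -1.08 and -1.90 against PBS). PTX lay close to PBS in each of them (0.10, 0.02 and 0.02). Trim62, described in human cells as working with the Toll-like receptor adaptor TRIF, read 160.2, 36.9 and 180.1, low after LPS alone (-1.89). Its other probe sets disagreed: one read 75.8, 87.4 and 75.2 and gave 0.18 for LPS against PBS, and the other read 32.3, 30.03 and 119.7 and was low after both stimuli (-1.49 for PTX and -1.56 for LPS).

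Trim40, reported to restrain NF-kB signalling, was the one member high after LPS alone. It read 24.2 after PTX, 91.9 after LPS and 23.8 with PBS, which gives 1.44 for LPS against PBS and -1.42 for PTX against LPS. Only the LPS reading reached the measured level, and Trim40 had 1 probe set, so the size of its difference depends on the pseudocount. It was 0.83 with a pseudocount of 64 and 1.90 with a pseudocount of 1.

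The 32 remaining measured members were within 2-fold in all 3 comparisons in their chosen probe set. Another measured probe set passed 2-fold for 4 of them, namely Trim12c, Trim17, Trim26 and Trim41. That of Trim41 read 195, 58.7 and 134 (0.50 for PTX and -1.001 for LPS against PBS, 1.499 for PTX against LPS), where the chosen one read 730.0, 510 and 629 (0.21, -0.29 and 0.50). That of Trim17 read 72.2, 31.2 and 81.8 (-0.15 and -1.05 against PBS), where the chosen one read 99.2, 55.2 and 83.6 (0.21 and -0.48). That of Trim26 read 416, 53.4 and 322 (0.35 and -2.29 against PBS). In each of these 3 genes the LPS reading was the low one. The list of PRY-SPRY members outside the cluster leaves out members that lack the RING, such as Trim14, which was higher after PTX. Of those listed 15 were measured, with 1 higher after PTX (Trim25). After LPS none of them was higher and 2 were lower (Trim7 and Trim62). Their medians were 0.17 for PTX and -0.10 for LPS. Beside these counts, 3.04% of all measured genes were higher after PTX, and 6.5% were higher and 13.0% lower after LPS. The LPS counts of these 15 genes thus do not set the class apart. Trim27, which works with the retromer in endosomal sorting, had 5 measured probe sets that lay between -0.00 and 0.22 for PTX and between -0.23 and 0.06 for LPS. Trim35 read 1554, 1727 and 1376 and differed by 0.17 and 0.32.

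The chromatin members Trim24, Trim28 and Trim33, which carry a PHD finger and a bromodomain and act as transcriptional cofactors, were all within 2-fold, with medians of -0.27 for PTX and -0.31 for LPS. Trim28, the corepressor that KRAB zinc finger proteins recruit to silence transposable elements, read 1120.4 after PTX, 969 after LPS and 1395 with PBS (-0.31 and -0.52). Its second probe set, at 597, 604 and 706, gave -0.23 and -0.22. Of 7 silencing partners of Trim28 none passed 2-fold after PTX, and after LPS Cbx1, a heterochromatin protein, was higher (1.19) and Chd4, the remodeller of the NuRD complex, was lower (-2.90, at 180.0 on the LPS array against 1447 on the PBS array). Beside these counts, 3.04% of all measured genes were higher and 2.37% lower after PTX, and 6.5% and 13.0% after LPS. Counts in a list of 7 genes thus do not set these partners apart.

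Members with a transmembrane, MATH, ARF or filamin domain had the lowest median of these classes after PTX. All 5 were measured, with a median of -0.38 for PTX and 0.08 for LPS. Trim59 alone passed 2-fold, lower after both stimuli, beside 2.37% of all measured genes after PTX and 13.0% after LPS. Trim13, which sits in the endoplasmic reticulum membrane, read 182, 337 and 318 on the PTX, LPS and PBS arrays (-0.75 and 0.08). Trim37 read 192, 320 and 253 (-0.38 and 0.32), but its second measured probe set gave -0.45 and -0.49. Trim23, a ligase fused to an ARF GTPase domain, read 249, 133 and 254, within 2-fold for both stimuli (-0.03 and -0.85).

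Members that lack the RING or end in no known folded domain had 8 measured genes, with medians of 0.18 and 0.04. Among them 1 was higher after PTX (Trim14) and 1 after LPS (Trim40), beside 3.04% and 6.5% of all measured genes. Trim8 read 401, 323 and 354 (0.17 and -0.13), with a second probe set at 105, 158 and 87.9 (0.22 and 0.75). Trim44 read 708, 652 and 690.0, and Trim56, a regulator of STING, read 224, 224 and 195, all within 2-fold of PBS. The NHL group had Trim3 and Trim32 measured (medians of 0.14 and -0.14), and the COS-box group Trim36 and Trim54 (medians of 0.26 and 0.15). After LPS the genes of each pair lay on opposite sides of PBS. Trim3 was at 0.10 and Trim32 at -0.39, while Trim36 was at -0.55 and Trim54 at 0.85 (123.5 on the LPS array against 61.4 on the PBS array). Trim80, which fell in none of these classes, read 82.0, 88.5 and 74.0 (0.12 and 0.22).

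The 15 members that were not measured read between 12.9 and 72.8 on all arrays. They were Trim2, Trim9, Trim15, Trim31, Trim42, Trim43a, Trim46, Trim60, Trim63, Trim66, Trim67, Trim69, Trim71, Trim72 and Trim75, and they include genes best known from other tissues, such as Trim63 and Trim72 in muscle and Trim9, Trim46 and Trim67 in neurons. None was 2-fold apart in its chosen probe set. Of the 39 probe sets below the measured level 4 were 2-fold apart in some comparison, one each of Trim9, Trim16, Trim24 and Trim60. Over all 111 probe sets, measured or not, 11 were higher and 2 lower in PTX against PBS (9.91% and 1.80%, beside 1.76% and 1.44% of all probe sets with 1 symbol). In LPS against PBS 7 were higher and 13 lower (6.31% and 11.7%, beside 4.42% and 11.9%), and in PTX against LPS 12 and 1 (10.8% and 0.901%, beside 12.4% and 4.4%).

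By role, the regulators of RNA and DNA sensing (9 measured of 11 listed, among them Trim25, Trim14, Trim21, Trim56 and Trim65) had 2 higher after PTX and none past 2-fold after LPS, with medians of 0.18 and 0.08. Regulators of Toll-like receptor and NF-kB signalling (9 measured of 10) had 2 higher (Trim30a and Trim5) and 1 lower (Trim59) after PTX, and 2 lower (Trim59 and Trim62) after LPS, with medians of 0.17 and 0.05. Neither median stands far from the family's own. Beside these counts, 3.04% of all measured genes were higher and 2.37% lower after PTX, and 6.5% and 13.0% after LPS. Trim62 counts as lower by its chosen probe set, and its other measured ones gave 0.18 and -1.56 for LPS against PBS.

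Partners of these proteins in sensing and ubiquitin conjugation were mostly within 2-fold, and the exceptions were not confined to sensors. Of 16 measured genes in the sensing pathways on which TRIM proteins act, 3 were higher after both PTX and LPS, namely the RNA sensor genes Ddx58, which encodes RIG-I (1.80 and 1.21), and Ifih1, which encodes MDA5 (2.11 and 1.61), and the transcription factor gene Irf7 (4.02 and 4.26). Of all measured genes 3.04% were higher after PTX and 6.5% after LPS. The other 13 were within 2-fold, including the DNA sensor gene Cgas (0.39 and 0.32), Mavs (0.28 and -0.53), Sting1 (0.79 and -0.17), Tab2 (0.10 and -0.28), Tab3 (-0.12 and -0.31) and Traf6 (0.06 and -0.49). Of 12 ubiquitin-conjugating enzymes that can serve RING or ISG15 ligases only Ube2l6, the conjugating enzyme for ISG15, was higher (1.59 and 2.39), while Ube2n, which builds K63-linked chains, was at -0.16 and 0.58.

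Of 4 TRIM genes with other symbols 3 were measured, and 2 of them were higher after PTX and 1 after LPS. These counts stand beside 3.04% and 6.5% of all measured genes. Pml, the organiser of nuclear bodies, read 714 after PTX, 357 after LPS and 198 with PBS (1.77 and 0.80), and Mefv, which encodes pyrin, read 1043, 982 and 429 (1.25 and 1.17). Mid1, a microtubule-bound member, was within 2-fold at 70.8, 60.2 and 108 (-0.51 and -0.70), and Mid2 was not measured. For scale, 17 of 18 measured type I interferon-stimulated genes were higher after PTX and 15 after LPS, with 1 lower after LPS, and their medians of 2.45 and 1.99 lay above the 1.49 and 0.70 of the TRIM cluster.

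Probe sets of a member lay closer together in PTX against PBS than in comparisons with the LPS array, but all measured genes differed less there too. The quartiles of all measured genes were -0.19 and 0.20 in PTX against PBS. They were -0.52 and 0.30 in LPS against PBS, and -0.29 and 0.54 in PTX against LPS. The 21 members with several measured probe sets spanned a median range of 0.23 in PTX against PBS, 0.57 in LPS against PBS and 0.74 in PTX against LPS. Of those 2-fold apart in their chosen probe set, 3 of 6 had another measured one past 2-fold in the same direction in PTX against PBS (Trim25, Trim30a and Trim30d), 3 of 5 in LPS against PBS (Trim7, Trim30d and Trim62), and 1 of 3 in PTX against LPS (Trim7).

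The 3 members lower after LPS were all among the dimmer ones, by a level that includes the LPS reading. Measured genes were split at the median of their mean level over the 3 arrays, so the readings compared also set the level. The 26 dimmer TRIM genes had 1 higher and 3 lower after LPS and a median of -0.17. All 6149 dimmer genes had 6.10% higher, 19.1% lower and a median of -0.19. The 17 brighter TRIM genes had 3 higher and none lower (median 0.31), beside 6.89%, 6.94% and a median of 0.03 for all 6150 brighter genes. After PTX all 7 higher members were among the 17 brighter ones (41.2%, beside 4.29% of all brighter genes). A high PTX reading itself raises the mean level, so these shares cannot show whether brighter members differ more.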

How the data were processed

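The authors' deposited table gave, for each Affymetrix probe set, a linear intensity on each array, never below 1. Per the labels' protocols, 3 µg of total RNA was made into biotinylated cRNA, while for background correction, scaling and the summarizing program the sources used here give nothing. Of 45101 probe sets 64 controls were left out, and genes were named from the platform annotation where it listed 1 symbol (34945 probe sets). All 58 TRIM symbols were current in the RefSeq table of GRCm38.p6. Differences of log2(intensity + 16) were computed in Python 3.11.15 with pandas 2.3.3 and NumPy 2.4.6. The counting was tested on simulated data. With 1 array per group no test was run, and the number of arrays limits the precision.

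The family, the 15 gene lists and the 8 marker lists were chosen with earlier results of these data known. Any member may be named, since its symbol chose it. Named with all readings are measured members at least 2-fold apart, cluster members, the 5 brightest, and probe sets of a member that disagree on the direction of a 2-fold difference. Other members are examples, and other genes come from the lists. Motifs were searched on both strands. Alternatives were pseudocounts of 1 and 64, median centring, quantile normalization, no filter or one at the 75th percentile, the mean of a gene's probe sets, and leaving out probe sets with an a, s or x suffix.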

Additional observations from a re-analysis of the deposited data

How the results depend on the processing

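With 1 array per group the size of a difference could be checked only against other processing. PTX against PBS was steadiest: its 7 higher genes numbered between 5 and 7 except when probe sets with a suffix were left out (3 of 34 genes), its 1 lower gene was lost (0) with a pseudocount of 64, the filter at the 75th percentile and the mean of probe sets, and the median of 0.17 became 0.28 with that filter. Trim14, Trim30a and Trim30d kept a 2-fold difference under every alternative that gave them a value. Without the LPS array, an alternative chosen after seeing the data, 7 were higher, 1 lower and the median was 0.18.

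In LPS against PBS the 4 higher genes became 2 with a pseudocount of 64, with the mean of probe sets and without suffixed probe sets, and 7 with median centring, and the 3 lower became 0 with the filter at the 75th percentile. The median of 0.05 became 0.37 with centring, 0.22 with that filter and -0.091 without suffixed probe sets. Trim12a turned to -0.29 with the mean of probe sets, which averages its 1.06 and -1.64. Without suffixed probe sets Trim12a turned to -1.64 and Trim62 to 0.18, because another probe set then stood for the gene. In PTX against LPS the 3 higher became 1 with the filter at the 75th percentile and 5 with the mean of probe sets. The 1 lower became 4 with centring, 3 with quantile normalization and 0 with a pseudocount of 64 or that filter. The median of 0.28 became -0.077 with centring and 0.038 with quantile normalization, and Trim62 turned to -0.17 without suffixed probe sets. The filter at the 75th percentile left 21 TRIM genes and dropped Trim7, Trim40, Trim59 and Trim62, so these no longer counted. Median centring moved every difference of a comparison by the same amount. Why the arrays differed in level was not tested. No paired analysis was possible because each group held 1 array.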

Other observations

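Probe sets that the platform annotation gives to several genes were outside the family, and 4 of the 5 that include a TRIM symbol belong to the Trim5/Trim30 cluster. One shared by Trim30a and Trim30d read 2190 after PTX, 769 after LPS and 550.5 with PBS (1.96 and 0.47). One shared by Trim30b and its neighbour Gm38525 read 184, 82.5 and 44.1 (1.73 and 0.71), and which of them it reports cannot be told apart. Of a pair shared by Trim34a and Trim34b, one read 603, 421 and 174 (1.70 and 1.20) and the other 119, 162 and 29.5 (1.57 and 1.97), high after both stimuli. They differ on which stimulus was higher. The fifth, shared by Trim17 and H2aw, read 700.1, 772 and 719 (-0.04 and 0.10).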
